A study of Mus musculus with 3 samples.

Results

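The oncofetal RNA-binding genes and the Lin28 axis were followed through 3 mouse cultures on the way from stem cells to beating heart-like tissue. The list held 10 genes, chosen by name with earlier results of these data known. They were the RNA-binding proteins Lin28a and Lin28b, the mRNA-binding family Igf2bp1, Igf2bp2 and Igf2bp3, and the chromatin proteins Hmga1 and Hmga2. The others were the transcription factor Sall4, the translational repressor Trim71 and the cell surface receptor Prtg. All 10 were listed in each of the 3 count tables, among 22439, 23371 and 24229 genes and 27886 different genes in all.

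The cells were male F1 hybrids, labelled C57BL/6 x CAST/EiJ, and the methods name the substrain C57BL/6J. The starting cells (mESC, 215 cells) were embryonic stem cells kept in 2i medium with Lif, which holds cells in a naive pluripotent state. The cardiac precursor cell cultures (CPCC, 175 cells) came from embryoid bodies, which were also grown from hanging drops in medium with ascorbic acid. They were then dissociated and passaged in medium with Egf and Fgf2. The cardiac bodies (CB, 232 cells) were floating aggregates grown from hanging drops in medium with ascorbic acid and picked because they were seen to beat. CPCC and CB were separate branches, so CPCC were not the source of the CB cells. Each culture is 1 deposited sample. The clones derived from several blastocysts, but no label ties a cell to one of them, so no test between cultures was made and no difference below has a replicate check.

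Lin28 proteins bind the precursors of the let-7 microRNAs and block their maturation, while mature let-7 represses the mRNAs of Lin28, Hmga2, Igf2bp and Trim71, so that cells tend to hold either the Lin28 side or the let-7 side of this circuit. The genes are active in the early embryo, are switched off in most tissues as organs mature, and reappear in many tumours, which is why they are called oncofetal. In the embryo the axis is known for timing the passage from growth to differentiation.

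Positions are given on GRCm38. Lin28a lies at chr4:134003330-134018841, Lin28b at chr10:45376620-45486395, Igf2bp1 at chr11:95957163-96005940, Igf2bp2 at chr16:22059009-22163299, Igf2bp3 at chr6:49085223-49214957, Hmga2 at chr10:120361275-120476469, Sall4 at chr2:168748332-168767943 and Trim71 at chr9:114507133-114564369, all on the minus strand. Hmga1 at chr17:27556497-27563674 and Prtg at chr9:72806874-72917291 are on the plus strand. Igf2bp3, Hmga1 and Trim71 each overlap a protein-coding gene on the opposite strand (Malsu1, AI413582 and C130032M10Rik). Lin28a, Igf2bp1, Hmga2, Sall4 and Prtg overlap opposite-strand genes of other types, such as Gm13061 for Lin28a. Reads of any of these overlapping genes could be counted with those of the listed genes.

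The link between the listed genes and let-7 can be read in their sequences, and it is shown here because the mRNA tables do not measure mature microRNAs. Of the 11 let-7 and miR-98 mature forms in RefSeq (GRCm38.p6), all but let-7j share the seed GAGGUAG, the bases 2 to 8 that pair with targets. The seed is in capitals.
mmu-let-7a-5p: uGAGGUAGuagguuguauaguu
mmu-let-7e-5p: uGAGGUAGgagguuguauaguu
mmu-let-7g-5p: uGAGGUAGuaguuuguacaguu
mmu-miR-98-5p: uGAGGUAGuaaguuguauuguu

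The matching letters on an mRNA are CTACCTC, searched on the transcript strand of the longest annotated 3′ UTR (GENCODE M21, GRCm38). The match was found in the 3′ UTR of 10 of the 10 listed genes, against 9.11% of 20831 genes with a 3′ UTR of 30 bases or more. Lin28b, Igf2bp1, Hmga2 and Trim71 had 4 matches each, which 12 genes of the 20831 (0.0576%) reached. The 3′ UTRs of the 10 genes were long, at 1183 to 6337 bases against a median of 976 bases over all genes. Among UTRs within 20% of the same length, 8.07% (for Hmga1) to 33.7% (for Igf2bp1) had a match, and 0.134% (Hmga2) to 0.504% (Trim71) had at least 4. Lin28a and Prtg had 2 matches and the other 4 genes had 1. Several of these genes are textbook let-7 targets, so the count is a description of the list and not independent evidence. The first match in the UTR of each gene with 4 matches, and of Lin28a, is given with the matching letters in capitals and the base after them.
Lin28b, chr10:45381023-45381029, minus strand: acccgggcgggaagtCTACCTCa
Hmga2, chr10:120364225-120364231, minus strand: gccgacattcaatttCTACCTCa
Igf2bp1, chr11:95961779-95961785, minus strand: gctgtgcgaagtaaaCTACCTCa
Trim71, chr9:114512473-114512479, minus strand: aacattgcctaagtcCTACCTCa
Lin28a, chr4:134005190-134005196, minus strand: gcacagcctgttgaaCTACCTCa

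Lin28 proteins are known to recognise GGAG in the loop of let-7 precursors. Those letters, searched on the hairpin strand between the mature arms, were present in 9 of the 12 let-7 and miR-98 hairpins and not in Mir98, Mirlet7b and Mirlet7c-2. One hairpin with the letters (capitals) and another without them show the difference.
Mirlet7a-2, chr9:41536716-41536811, plus strand: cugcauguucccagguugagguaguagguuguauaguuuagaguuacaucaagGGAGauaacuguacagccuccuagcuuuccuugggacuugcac
Mirlet7b, chr15:85707319-85707403, plus strand: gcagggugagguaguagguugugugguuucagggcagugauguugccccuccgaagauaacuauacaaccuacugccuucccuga

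Levels are given as CPM, a gene's counts per 1000000 gene counts, summed over the cells of a culture or pool. Detection in a cell means an estimated count of at least 1. The libraries were made per chip and sequenced as 8 pools (3 of mESC, 2 of CPCC, 3 of CB), and pools stand here for the spread within a culture without being replicates. The median depth per cell was 1528316 counts in mESC, 1437414 in CPCC and 1397869 in CB, and the 3 CB pools had 69, 78 and 85 cells with medians of 804581, 1750784 and 1596814 counts. No column name was shared between tables and no pair of cells had identical values. Intervals are at 95% and cover counting error only.

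CB pool 2 stood apart from the other CB pools in its cell types. The 10 fibroblast markers summed to 15462, 540 and 17171 CPM over pools 1, 2 and 3, with every marker above 0 in each pool. The 10 endothelial markers summed to 102, 1460 and 57.5 CPM, with Tie1 at 0 in pool 1 and Tie1 and Emcn at 0 in pool 3. The 7 visceral endoderm markers summed to 32.4, 1486 and 2.26 CPM, with Amn and Cubn at 0 in pool 1 and Afp, Ttr, Amn and Sox17 at 0 in pool 3. Pool 2 was low in stromal RNA and high in endothelial and yolk-sac-type RNA, and its 12 cell cycle markers were also high, at 3407 CPM against 1687 and 444 CPM. The 10 cardiomyocyte markers, which the label of the CB cells would call for, summed to 252, 1033 and 23.7 CPM, with Myh6 and Nppa at 0 in pool 3, and none of the 10 was detected in most cells of any CB cluster. The part of these differences in the values below was not tested. The levels and ratios of the 10 genes in CB are given by pool or with and without pool 2, while other CB values, unless a pool is named, are over all 3 pools.

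The Lin28 pair was scarce in mESC and was higher in CPCC. Lin28a had 2.98, 0.896 and 0.823 CPM in the 3 mESC pools, 19.8 and 5.54 CPM in the CPCC pools, and 0.0802, 14.9 and 0 CPM in the CB pools. Lin28b stood at 5.35, 6.80 and 5.61 CPM over the mESC pools, at 24.9 and 10.9 over CPCC and at 1.70, 98.2 and 0 over CB. Both genes were higher in each CPCC pool than in any mESC pool, whereas the CB pools were spread, with pool 2 above mESC for both genes and above CPCC for Lin28b, and pools 1 and 3 below every mESC and CPCC pool. Lin28a was detected in 18.1% of mESC, 57.1% of CPCC and 18.1% of CB cells, and Lin28b in 24.7%, 46.9% and 19%. In CB pool 3 both were at 0 of 85 cells, which by a floor of 3 cells allows a share with a count of up to 3.53% (exact upper bound 4.25%). This limits cells with a count, not cells that express the gene.

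The Igf2bp proteins carry and stabilise mRNAs such as Igf2 and Actb. Igf2bp1 stood at 142, 89.9 and 104 CPM over the mESC pools, at 148 and 47.3 over CPCC and at 16.4, 114 and 7.73 over CB. Igf2bp2 stood at 88.8, 127 and 78.0 CPM over the mESC pools, at 58.6 and 72.7 over CPCC and at 107, 170 and 57.1 over CB. Igf2bp3 stood at 67.0, 69.9 and 54.5 CPM over the mESC pools, at 71.3 and 64.1 over CPCC and at 81.9, 181 and 45.0 over CB. Igf2bp1 reached mESC levels in CB only in pool 2, while Igf2bp2 and Igf2bp3 stayed above 40 CPM in every pool of every culture. Reads of Malsu1, which overlaps Igf2bp3 on the opposite strand, could be part of the Igf2bp3 values. Igf2bp2 was detected in 78.0% of CB cells and Igf2bp3 in 66.4%, the highest shares of the 10 genes there.

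The Hmga proteins bend AT-rich DNA and open chromatin for other factors. Hmga1 stood at 335, 192 and 243 CPM over the mESC pools, at 240 and 115 over CPCC and at 32.3, 184 and 15.5 over CB. Hmga2 stood at 39.5, 42.1 and 39.8 CPM over the mESC pools, at 58.6 and 102 over CPCC and at 61.5, 313 and 8.33 over CB. The pair thus went opposite ways from mESC to CPCC in the summed values, with Hmga1 lower and Hmga2 higher, although the Hmga1 pools overlapped. Hmga1 is uncertain, because a near-identical gene, Hmga1b, can share its reads: Hmga1b had 30.3, 177 and 14.2 CPM in the CB pools, close to Hmga1 in each.

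Sall4, a zinc finger factor of pluripotent cells, stood at 194, 118 and 116 CPM over the mESC pools, at 108 and 18.7 over CPCC and at 2.12, 53.2 and 0 over CB. Trim71, a repressor of mRNAs that keeps embryonic cells dividing, stood at 64.7, 54.1 and 61.2 CPM over the mESC pools, at 64.4 and 18.9 over CPCC and at 3.51, 64.5 and 1.09 over CB. Prtg, a receptor of the early neural tube and mesoderm, stood at 18.6, 13.0 and 13.8 CPM over the mESC pools, at 26.1 and 22.4 over CPCC and at 7.30, 188 and 1.05 over CB. Sall4 was below every mESC pool in each CPCC and CB pool. Trim71 in CB pool 2 was at the mESC level, and Prtg there was above all other pools of the series.

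**Figure D1:**
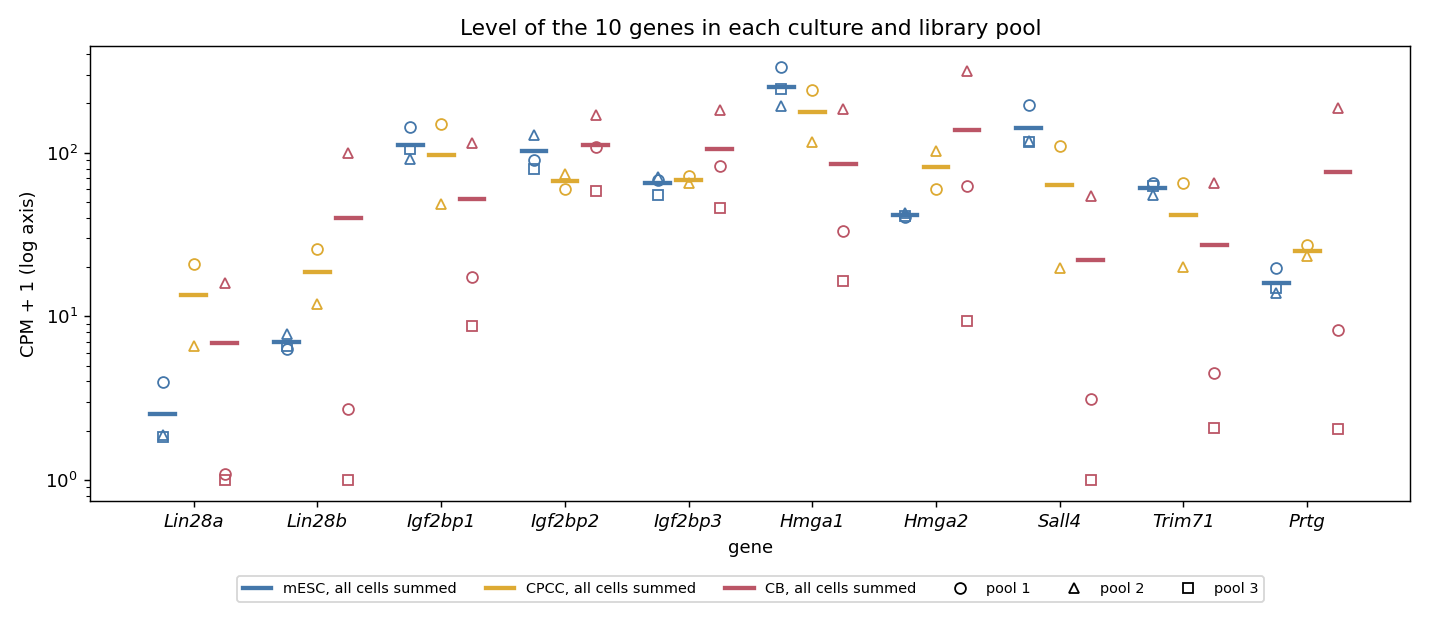
Level of the 10 genes as CPM + 1 on a log axis, with a bar for all cells of a culture summed and an open symbol for each pool (blue mESC, yellow CPCC, red CB). In CB the triangle of pool 2 is above the circle of pool 1 and the square of pool 3 for each gene, and Lin28a, Lin28b and Sall4 lie at 0 CPM in pool 3.

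Levels of different genes were compared per kilobase of exon. In mESC, Hmga1 led with 119 CPM per kb, followed by Sall4 with 25.5, Igf2bp2 with 13.6, Igf2bp1 with 11.4, Igf2bp3 with 7.90, Trim71 with 6.38 and Hmga2 with 6.00, while Prtg had 1.64, Lin28b 0.661 and Lin28a 0.382. In CB, Hmga1 led with 39.8 CPM per kb, followed by Hmga2 with 20.3, Igf2bp2 with 14.9, Igf2bp3 with 12.8 and Prtg with 8.20, while Igf2bp1 had 5.26, Lin28b 4.26, Sall4 3.83, Trim71 2.82 and Lin28a 1.46. In CPCC the order was Hmga1 with 82.7 CPM per kb, Hmga2 with 12.0, Sall4 with 11.2, Igf2bp1 with 9.92, Igf2bp2 with 8.90, Igf2bp3 with 8.28, Trim71 with 4.38, Lin28a with 3.11, Prtg with 2.64 and Lin28b with 1.95. In mESC the pool ranges of these neighbours overlapped for Igf2bp2 with Igf2bp1, Igf2bp3 with Trim71, Trim71 with Hmga2 and Lin28b with Lin28a, and the other neighbours were apart. In CPCC only Hmga1 with Hmga2 and Igf2bp3 with Trim71 were apart, among the 2 pools. In CB all neighbours overlapped, so that order has no firm ranks. Within mESC the step from Hmga2, with 5.84 to 6.21 CPM per kb over the pools, down to Prtg, with 1.41 to 2.03, was wider than either range.

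The comparison of CPCC with mESC sets the naive stem cells beside the passaged precursor cultures. At a log2 ratio of (CPM + 1) of 1 or more, 2 of the 10 genes were higher in CPCC and 1 was lower. Of 15471 genes compared, 17.5% were higher and 8.36% lower by that rule, so the list did not stand out in number. Lin28a had a log2 ratio of 2.41 (2.29 to 2.53) and Lin28b of 1.42 (1.33 to 1.51), and Sall4 of -1.17 (-1.21 to -1.14). Pools of the 2 cultures did not overlap for these 3 genes, which 13.5% of all genes reached in the higher and 7.33% in the lower direction. Hmga2 fell just short with 0.98, its pools also apart. The median over the 10 genes was -0.07, beside -0.01 over all genes. The CPCC pools differed in their make-up, the 10 pluripotent markers summing to 5575 and 1212 CPM. The 10 fibroblast markers summed to 159 and 1948 CPM, with Lum at 0 in pool 1. The 7 macrophage markers summed to 16.5 and 4534 CPM, with C1qa, C1qb, C1qc, Fcrls and Tyrobp at 0 in pool 1. The ratios moved with the pool, and the part of this make-up was not tested. With CPCC pool 1 alone and with CPCC pool 2 alone the ratio was 3.04 and 1.37 for Lin28a, 1.89 and 0.77 for Lin28b, 0.52 and 1.31 for Hmga2, and -0.38 and -2.85 for Sall4, so Lin28b was not called with pool 2 alone and Sall4 not with pool 1 alone. With pool 2 alone Hmga2 was called higher, and Igf2bp1 (-1.21), Hmga1 (-1.12) and Trim71 (-1.60) joined Sall4, so 4 genes were lower, while with pool 1 alone 0 were lower. In a check chosen after the values had been seen, the cell with the most counts of a gene was left out. A single cell held 42.4% of the Lin28a counts of CPCC pool 2, and without it that pool was at 3.23 CPM and its ratio at 0.74, under the threshold. Without its top cell (27.4% of counts) Hmga2 in CPCC pool 1 was at a ratio of 0.09. Over all CPCC cells without the top cell, Lin28a was at 2.28 and Lin28b at 1.33. Sall4 was at -0.90 without mESC pool 1, and a pseudocount of 10 CPM gave 0.96 for Lin28a and 0.79 for Lin28b. With the same weight for every cell Lin28b was at 0.88 and Prtg at 1.09, so Prtg took its place among the higher genes.

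CB compared with mESC gave a split list. Of the 10 genes 4 were higher by at least 2-fold and 4 lower, against 30.8% and 14.0% of 16018 genes. Higher were Lin28b with a log2 ratio of 2.50 (2.43 to 2.58), Prtg with 2.25 (2.20 to 2.30), Hmga2 with 1.73 (1.70 to 1.77) and Lin28a with 1.43 (1.30 to 1.56). For none of these 4 were the pools apart, which 22.7% of all genes reached in that direction. Lower were Sall4 with -2.68 (-2.72 to -2.64), Hmga1 with -1.57 (-1.59 to -1.54), Trim71 with -1.15 (-1.20 to -1.10) and Igf2bp1 with -1.10 (-1.14 to -1.07), and the pools were apart for Sall4 and Hmga1, beside 12.9% of all genes. At a pseudocount of 10 CPM the Lin28a, Igf2bp1 and Trim71 calls ended, at 0.46, -0.98 and -0.94.

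The higher values rested on CB pool 2. Without that pool none of the 10 genes was higher by at least 2-fold and 7 were lower, beside 31.5% and 19.6% of 15922 genes, and all 4 ratios turned negative: Lin28b to -2.21, Prtg to -2.02, Lin28a to -1.30 and Hmga2 to -0.71. With pool 2 alone, 5 genes were higher, now with Igf2bp3, and Sall4 alone was lower, at -1.39, beside 27.2% and 13.8% of 15649 genes. Sall4 was therefore lower than in mESC in either case. Igf2bp1 and Trim71, called lower with all pools, had ratios of 0.05 and 0.11 with pool 2 alone.

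CB compared with CPCC gave 2 genes higher, Prtg with a log2 ratio of 1.59 (1.54 to 1.65) and Lin28b with 1.09 (1.02 to 1.15), and 2 lower, Sall4 with -1.51 (-1.56 to -1.45) and Hmga1 with -1.05 (-1.08 to -1.02). Of 16764 genes, 21.3% were higher and 9.44% lower. The pools overlapped for all 4, where 12.2% of all genes were apart in the higher and 5.55% in the lower direction, and without CB pool 2 none of the 10 was higher and 8 were lower, beside 22.7% and 15.1% of 16656 genes. Lin28b and Prtg then turned to -3.63 and -2.68. With CB pool 2 alone 5 were higher and 0 lower, beside 18.9% and 13.5% of 16437 genes. Sall4 in this pair turned to 0.17 against CPCC pool 2 alone. The Lin28b call ended with TMM factors (0.91), DESeq2 size factors (0.90), the same weight for every cell (0.87) and a pseudocount of 10 CPM (0.81), and that pseudocount also ended the Hmga1 call (-0.98). The comparison shares the CB cells with the one before.

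**Figure D2:**
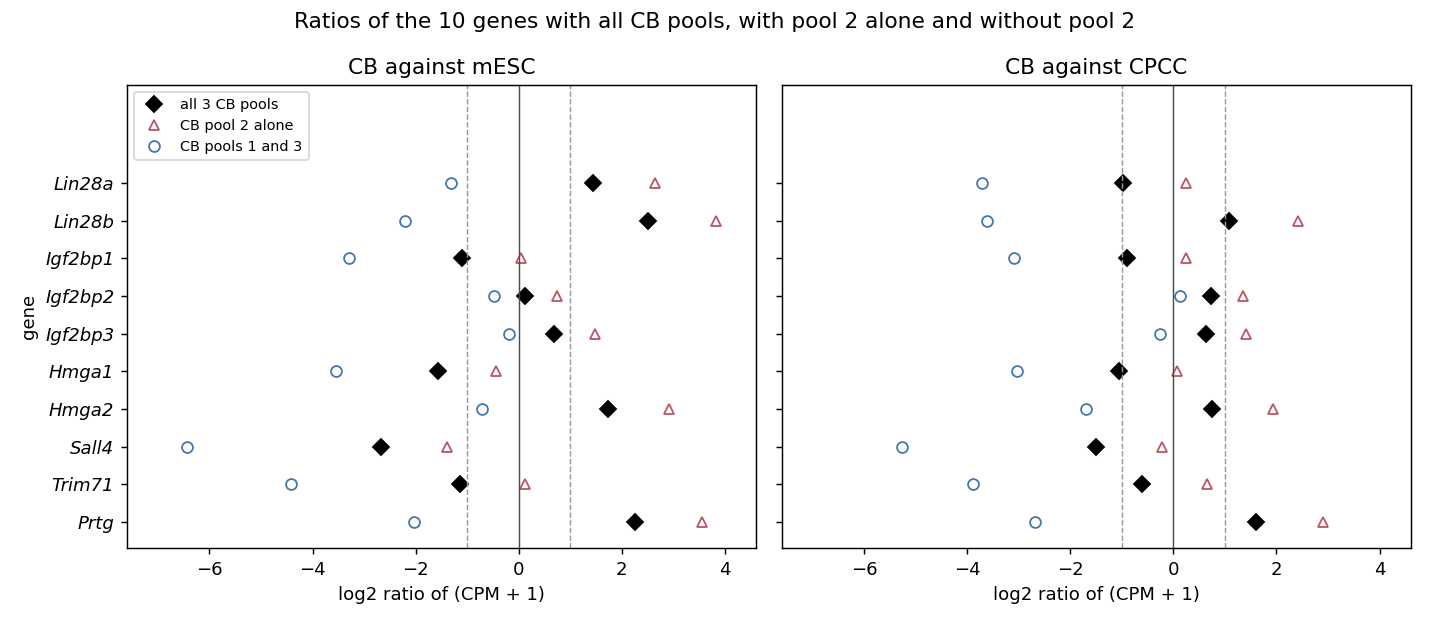
Log2 ratio of (CPM + 1) of each gene in CB against mESC (left) and against CPCC (right), with all CB pools (black diamond), pool 2 alone (red triangle) and pools 1 and 3 (blue circle). Dashed lines mark 2-fold, and the circles lie below 0 for all genes on the left and for all but Igf2bp2 on the right.

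Within CB, the set was carried by pool 2, a contrast chosen after the pools had been seen. Of the 10 genes, 9 were at least 2-fold higher in pool 2 than in both other pools, which 10.9% of 18614 genes were, and Igf2bp2 was the exception with log2 ratios of 0.66 over pool 1 and 1.55 over pool 3. Pool 2 held 39.0% of all CB counts but 99.7% of those of Lin28a, 99.2% of Lin28b, 98.2% of Sall4, 97.6% of Prtg, 95.8% of Trim71 and 89.1% of Hmga2. Lin28b, Sall4 and Lin28a were at 0 in pool 3, and their log2 ratios of (CPM + 1) in pool 2 over pool 3 were 6.63, 5.76 and 3.99. Against a floor of 3 counts in pool 3 their levels in pool 2 were 4710-, 2553- and 714-fold higher. These folds are not lower bounds, because 1 cell can hold far more than 3 counts. Over pool 1 the log2 ratios of the 9 genes ran from 1.13 for Igf2bp3 to 5.20 for Lin28b. For the genes near 0 in pool 1, a few cells made up what was left. All of the Sall4 counts were in 1 cell and all of the Lin28a counts in a different cell. For Lin28b 1 cell held 86.8% of the counts and for Trim71 1 cell held 81.7%, whereas Igf2bp2, Igf2bp3 and Igf2bp1 were in 54, 43 and 32 of the 69 cells there. In pool 2 the top cell of a gene held 16.7% of the Lin28a counts and 5.61 to 9.38% for the other genes.

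The number of the 10 genes found in the same cell differed between cultures and pools. The median cell had 8 of the 10 genes in mESC and in CPCC but 3 in CB, where the pools had medians of 3, 8 and 2. The number of all genes detected moved the same way, with medians per cell of 9532 in mESC, 9252 in CPCC and 6661 in CB, and of 6181, 7464 and 5771 in the CB pools, and its part in the count of the 10 was not tested. At least 7 of the 10 were found in 2 of 69 cells of pool 1 (2.90%, exact interval 0.353 to 10.1%), in 67 of 78 cells of pool 2 (85.9%, 76.2 to 92.7%) and in 0 of 85 cells of pool 3. The 23 CB cells with all 10 genes were in pool 2. After thinning every cell to 430000 counts, so that depth was alike, the share with at least 7 was 3.57% of 56 cells, 87.3% of 71 cells and 0 of 83 cells. In CPCC the share also differed by pool, with 92.4% of 79 cells and 37.5% of 96 cells, while the mESC pools had 91.1%, 83.1% and 85.4%.

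**Figure D3:**
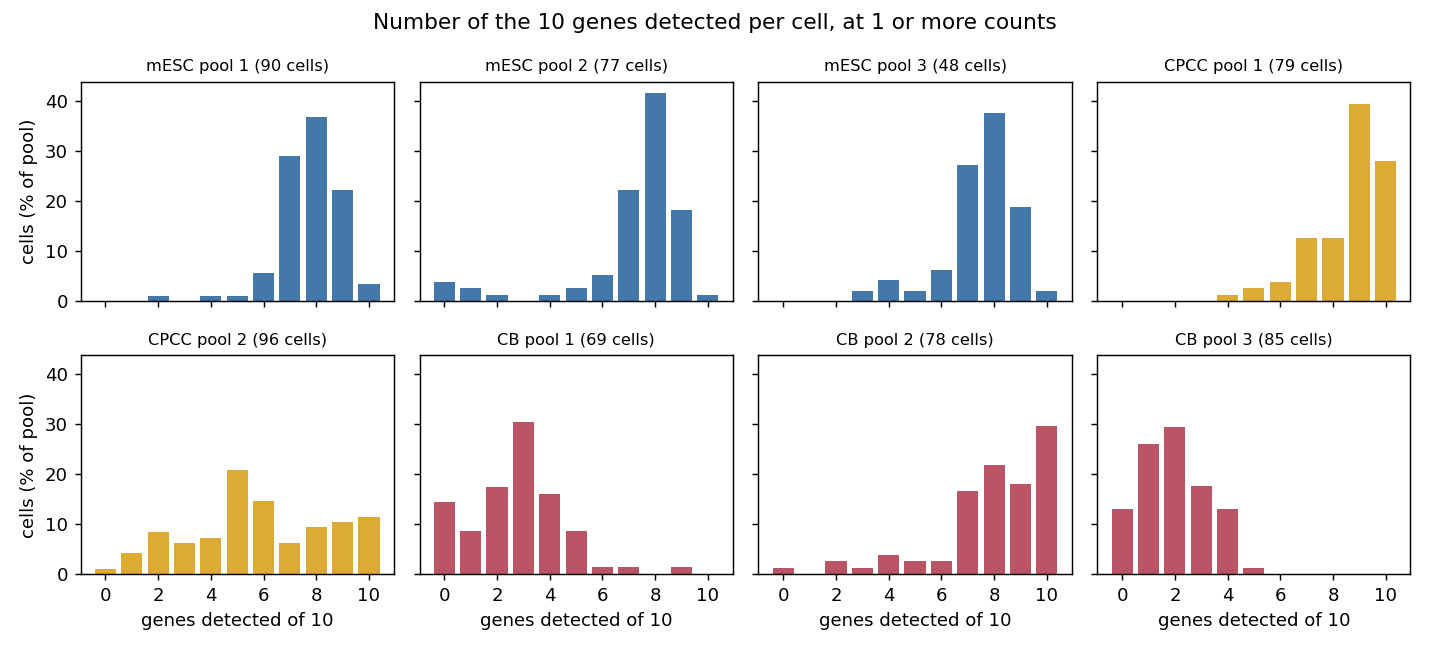
Number of the 10 genes detected per cell at 1 or more counts, as the percent of cells of each of the 8 pools. CB pool 2 peaks at all 10 genes (23 of 78 cells), whereas CB pool 1 peaks at 3 genes and CB pool 3 at 2.

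Co-detection within CB cells was described first for Lin28b, Igf2bp3 and Hmga2, which code for an RNA-binding protein of the axis and products of known let-7 targets. At least 2 of the 3 were detected in 96 of 232 CB cells (41.4%, 35.0 to 48.0%), in 20 of 69, 68 of 78 and 8 of 85 cells of the pools, and in 40.0% of 210 cells after thinning. All 3 were together in 40 cells, 38 of them in pool 2. Without pool 2 the share with at least 2 was 18.2%.

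In CB pool 2 the Lin28 pair was found in about the same number of cells but not always the same cells. Lin28a was detected in 41 of 78 cells, Lin28b in 42 and both in 28, so 68.3% of Lin28a cells also had Lin28b, beside 37.8% of the 37 cells without Lin28a. Each of the 41 Lin28a cells had Trim71 and Igf2bp1, which were also in 73.0% and 89.2% of the cells without Lin28a, and 37 of them had Sall4 (90.2%), which was found in 40.5% of the cells without Lin28a. Lin28b went with Hmga2 in 41 of its 42 cells (97.6%, beside 80.6% of cells without Lin28b) and with Sall4 in 33 (78.6%, beside 52.8%). Detected Lin28a was faint, at a median of 6.16 CPM in the cells that had it, against 157 CPM for Lin28b, and thinning lowered the Lin28a share of pool 2 cells from 52.6% to 42.3% and left Lin28b at 52.1% after 53.8%. After thinning, Lin28a and Sall4 shared 25 of 30 Lin28a cells (83.3%, beside 43.9% without Lin28a).

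**Figure D4:**
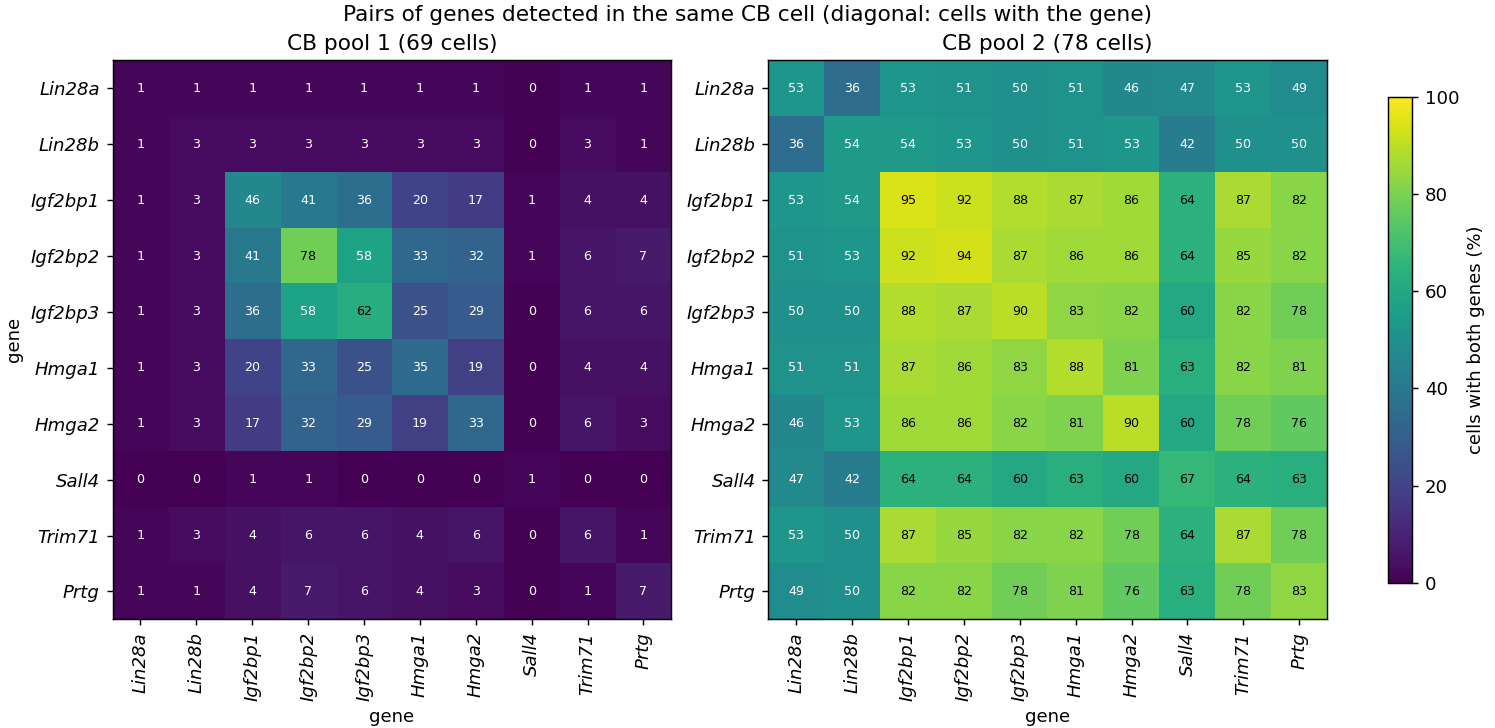
Percent of cells in which both genes of a pair were detected at 1 or more counts, in CB pool 1 (69 cells) and pool 2 (78 cells), with the share of cells holding each gene on the diagonal. The highest pair in pool 1 was Igf2bp2 with Igf2bp3 at 58.0% and the median pair was at 2.90%, whereas the median pair in pool 2 was at 64.1%.

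Across the 210 CB cells with at least 430000 counts, the Pearson r of log2(CPM + 1) for the 45 pairs ran from 0.19 to 0.76, with a median of 0.49, and was highest for Trim71 with Prtg (0.76) and Lin28a with Sall4 (0.70). These cells share pools and depth, and within pool 2 (71 cells) the median was 0.23, the highest value being 0.58 for Lin28a with Sall4 and the lowest -0.10 for Igf2bp1 with Hmga2. In pool 3 (83 cells) the median over the 21 pairs with values was 0.02. In pool 1 (56 cells) the median was 0.19, with r from -0.18 to 0.90. Its highest values, 0.90 for both Lin28a and Trim71 with Lin28b, were found where Lin28b was detected in 2 of the 69 cells. The median was lower within each pool than over all pools, while single pairs in pool 1 were higher.

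Clusters of cells, computed with the 10 genes left out of the variable genes, showed which cells held the set. The CB cells formed 4 clusters. Cluster 0 (87 cells, of which 23, 58 and 6 came from pools 1, 2 and 3) had no name from the marker lists, with 0 of the 10 cardiomyocyte and 2 of the 10 fibroblast markers but all 12 cell cycle markers in most cells, and its leading genes were Car14, Sall4, Prtg, Rrm2 and H2ac12. It held 75.1% of the summed counts of the 10 genes in CB at 1336 CPM, with Hmga2 at 279 CPM, Prtg at 191 CPM, Lin28b at 91.1 CPM and Sall4 at 56.7 CPM. The fibroblast-like cluster 1 (82 cells, none from pool 2, all 10 fibroblast markers in most cells) and the epithelial-like cluster 2 (43 cells, none from pool 2, all 9 epithelial but also 6 fibroblast markers in most cells) had 146 and 176 CPM in sum. Lin28a and Sall4 were at 0 in both of those clusters, while Igf2bp2 was still at 68.6 and 60.3 CPM and Igf2bp3 at 35.6 and 70.3 CPM.

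The endothelial-like cluster 3 (20 cells, all from pool 2, all 10 endothelial markers in most cells) also held much of the set. Its cells had a median of 7 of the 10 genes and 13 of 20 (65.0%) had at least 7, beside a median of 8 and 63.2% of the cells in cluster 0 over all pools. Among pool 2 cells alone, cluster 0 was higher, with a median of 9 and 54 of 58 cells (93.1%) with at least 7. Hmga2 was at 295 CPM and in 20 of 20 cells, Igf2bp1 was at 114 CPM and Lin28b at 59.2 CPM. Igf2bp3 was at 121 CPM, Igf2bp2 at 109 CPM, Hmga1 at 103 CPM, Trim71 at 51.0 CPM and Prtg at 44.7 CPM. Sall4, at 3.78 CPM and in 5 of 20 cells, and Lin28a, at 3.03 CPM and in 4 of 20, were low beside cluster 0, and 1 cell held 69.3% of that Lin28a. Endothelial-like cells of other pools were not found in numbers that form a cluster, so the cell type and the pool cannot be told apart for this cluster.

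Cluster 0 held cells of more than 1 pool, which allowed a look at cells of like clustering in different pools, chosen after the clusters had been seen. Its 23 cells of pool 1 had a median of 3 of the 10 genes and 1 cell with at least 7, and its 58 cells of pool 2 a median of 9 and 54 cells with at least 7. Hmga2 was at 123 CPM in the pool 1 cells and 319 CPM in the pool 2 cells, Igf2bp3 at 134 and 198 CPM, Lin28b at 6.00 and 109 CPM, Prtg at 10.6 and 228 CPM, and Sall4 at 8.61 and 67.2 CPM. The cell cycle markers summed to 4947 CPM over the pool 1 cells and 3613 CPM over the pool 2 cells, with Mki67 at 653 and 270 CPM, sums in which deep cells weigh more. Depth differed, with medians of 450715 and 1833597 counts, but after thinning the medians were 4 genes in 13 cells and 9 genes in 52 cells, and 1 of 13 and 49 of 52 cells had at least 7. Of these cells, 6 in pool 1 and 5 in pool 2 had under 100000 counts.

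In CPCC the 10 genes were split between clusters. The pluripotent-like cluster 0 (66 cells, 57 from pool 1, all 10 pluripotent markers in most cells) had Lin28a at 23.7 CPM, Sall4 at 134 CPM, Trim71 at 72.8 CPM and Hmga1 at 296 CPM, but Hmga2 at 10.2 CPM. Cluster 1 (55 cells, led by Fbln5, Mgp and Col1a2, with 5 of 10 fibroblast and 4 of 6 smooth muscle markers in most cells and left unnamed) was the reverse, with Hmga2 at 194 CPM and Igf2bp2 at 104 CPM, and with Lin28a at 2.79 CPM and Sall4 at 11.4 CPM. The contrast held within each pool for Hmga2, at 10 against 197 CPM among pool 1 cells and 12.3 against 193 CPM among pool 2 cells. Cluster 2 of 30 cells, led by Fgf8, Ackr4 and Fgf5, had 7 of 10 pluripotent and 6 of 9 epithelial markers in most cells and was left unnamed. It had the highest Prtg of the CPCC clusters, 88.9 CPM, and Lin28a at 20.6 CPM, of which 1 cell held 45.8%, leaving 11.8 CPM without it. Prtg there was at 71.5 CPM without its top cell.

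The macrophage-like CPCC cluster (24 cells, all 7 macrophage markers in most cells) gave the background of a cell type not known for Sall4 or Lin28a. Sall4 was at 0.192 CPM there and Lin28a at 0.110 CPM, with 12.5% and 8.33% of cells having at least 1 count and 0 of 15 cells after thinning. Trim71 and Prtg were each in 2.44% of the fibroblast-like CB cells, at 1.30 and 2.09 CPM, beside 16.7% and 8.33% of the macrophage-like cells, at 0.796 and 0.0549 CPM. In the fibroblast-like cells 1 cell held 79.0% of the Trim71 counts and 1 cell 66.3% of the Prtg counts, and no order was read from these shares. Igf2bp3 at 59.8 CPM and Hmga1 at 27.1 CPM were present in these macrophage-like cells, while 74.4% of the Igf2bp1 counts (39.7 CPM) came from 1 cell, without which the level was 10.4 CPM. The 3 mESC clusters had 947, 736 and 723 CPM in sum and a median of 8 genes each, but differed in single genes. Lin28a was at 3.76, 0.709 and 0.596 CPM and Sall4 at 190, 123 and 121 CPM, and 92.6%, 74.7% and 94.9% of cells had at least 7 of the 10. The first of these clusters was mostly mESC pool 1 (79 of 81 cells).

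**Figure D5:**
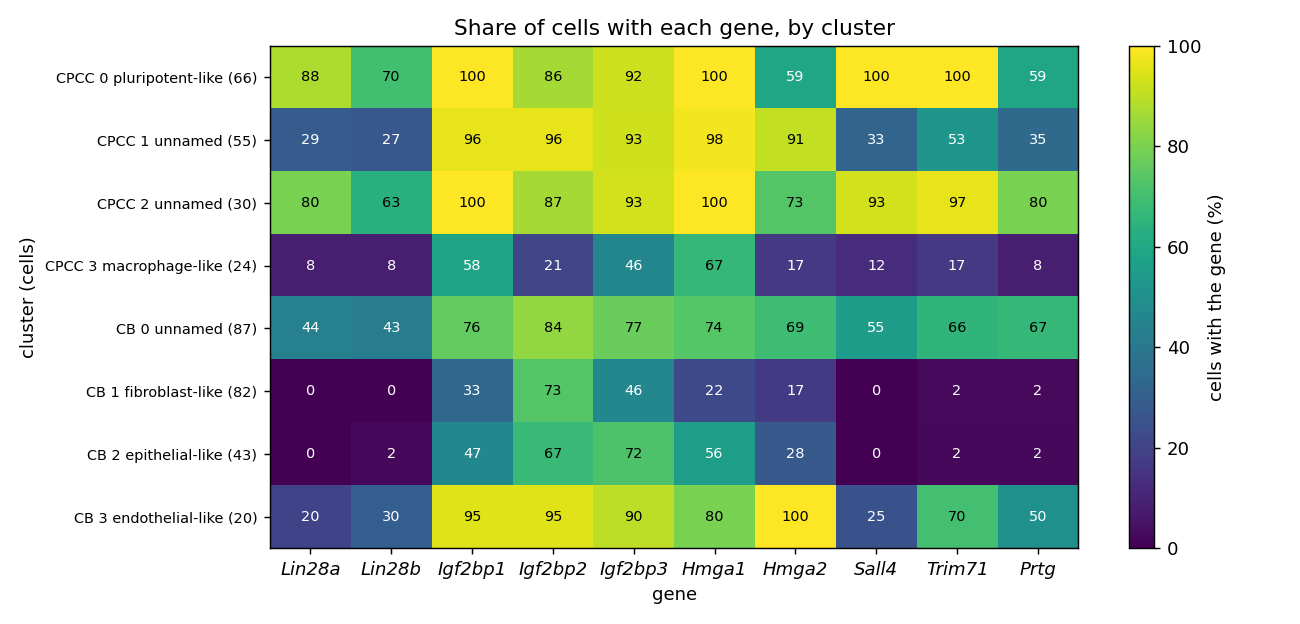
Percent of cells with each gene at 1 or more counts in the 4 CPCC and 4 CB clusters, with the number of cells in brackets. Lin28a and Sall4 were in most cells of CPCC clusters 0 and 2, in 0% of the fibroblast-like and epithelial-like CB cells, and Hmga2 was in 100% of the endothelial-like cells.

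The list of mRNAs of proteins that make and degrade let-7 held 21 symbols, of which Zcchc11 and Zcchc6 are older names of Tut4 and Tut7. The 19 genes it stood for were all compared. None passed 2-fold in CPCC against mESC, with a median of -0.18, 6 were higher and 2 lower in CB against mESC, with a median of 0.55, and 4 and 1 in CB against CPCC. Of all genes, 17.5% were higher and 8.36% lower in the first of these comparisons, 30.8% and 14.0% in the second and 21.3% and 9.44% in the last, so the counts of both CB comparisons were near the background. In CB the highest were Tnrc6b, a scaffold of the silencing complex, at 63.4 CPM against 16.2 CPM in mESC (log2 ratio 1.91), and Ago4 at 3.40 against 0.589 CPM (1.47), the CB pools being at 63.5, 67.8 and 59.4 CPM for Tnrc6b, while Ago4 was at 1.27 CPM in pool 2 and at least 2-fold higher in both others. By pool within CB, Ago4 was the 1 of 19 lower in pool 2, and 2 were higher, the let-7 processing enzyme Dicer1 at 41.5, 110 and 43.1 CPM and the RNA-binding protein gene Hnrnpa1 at 341, 798 and 178 CPM, beside 11.1% and 10.9% of all genes. The lowest were Xpo5, the export carrier of microRNA precursors, at 36.4 against 88.1 CPM (-1.25) and Tarbp2, a Dicer partner, at 35.1 against 76.6 CPM (-1.10). In CB against CPCC, Tut4, which tags let-7 precursors for decay together with Lin28, was at 106 against 36.3 CPM (1.52), and was at 87.3, 158 and 66.7 CPM in the CB pools. In CPCC against mESC the extremes were Ago2 at -0.84 and Ago4 at 0.91.

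Textbook let-7 targets outside the list differed in both directions. Of 22, 7 were higher and 2 lower in CPCC against mESC, with a median of 0.29, 8 and 4 in CB against mESC, with a median of 0.43, and 5 and 4 in CB against CPCC, with a median of -0.07. Beside these counts stand 17.5% and 8.36%, 30.8% and 14.0%, and 21.3% and 9.44% of all genes. The cell cycle gene Ccnd2 was at 0.558, 302 and 422 CPM in mESC, CPCC and CB, and the growth factor receptor Igf1r 8.77, 27.3 and 102 CPM, both without overlap of the mESC and CB pools (447, 262 and 559 CPM for Ccnd2 and 91.7, 107 and 102 CPM for Igf1r in the CB pools). Myc, a growth regulator, was at 3.74, 58.5 and 20.3 CPM. Hk2, a hexokinase, was lower in CPCC and CB than in mESC, with log2 ratios of -1.47 and -1.99. By pool within CB, 8 of these 22 (Mycn, Cdc25a, Cdc34, E2f2, Insr, Arid3a, Arid3b and Hic2) were at least 2-fold higher in pool 2 than in both others and Cdk6 was lower, beside 10.9% and 11.1% of all genes. Arid3b, a chromatin factor, had 1.20, 74.2 and 0.111 CPM in the 3 pools and had the highest r with Lin28b among genes outside the list.

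Known mRNA partners of the Igf2bp and Trim71 proteins were compared by pool with the same rule. None of the 8 listed was higher in pool 2 and 4 were lower, beside 10.9% and 11.1% of all genes: Igf2 with 42.3, 3.09 and 282 CPM in pools 1, 2 and 3, Cdkn1a, a cell cycle inhibitor, with 281, 51.9 and 410 CPM, the immediate early factor Egr1 with 1661, 131 and 1841 CPM, and Rbl2, a pocket protein, with 24.7, 7.34 and 42.7 CPM. The other 4 passed in neither direction, with Actb at 3237, 3279 and 2578 CPM, Cd44 at 62.6, 44.9 and 56.7 CPM and Rbl1 at 28.3, 28.7 and 14.2 CPM in the pools. The last of them, the imprinted RNA H19, was high in each CB pool, at 3612, 2685 and 2209 CPM, against 0.122 CPM in mESC. Between cultures, 5 of the 8 were higher in CB than in mESC and none lower, with a median of 4.03, beside 30.8% and 14.0% of all genes. The stromal and cell cycle make-up of the pools moved with these values, and its part was not tested.

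Other oncofetal genes were compared by pool in the same way. Afp was the 1 of 6 that was higher in pool 2, at 8.0, 588 and 0 CPM. Dlk1 was lower there, at 769, 12.9 and 34.6 CPM, and Peg3, Mest, Gpc3 and Plag1 passed 2-fold against both other pools in neither direction. Of all genes 10.9% were higher and 11.1% lower by this rule, and with 1 of 6 in each direction nothing was read about the list. All 5 that could be compared were higher in CB than in mESC, beside 30.8% of all genes, with Mest at 2324 against 85.0 CPM (2084, 3869 and 1011 CPM in the CB pools) and Peg3 at 1188 against 87.1 CPM (1720, 1457 and 709 CPM).

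Genes outside the list were ranked by Pearson r with 3 of the listed genes across the 210 deep CB cells, among 9723 genes in at least 25% of CB cells. The listed genes were left out of the ranking, though Sall4 (0.62), Trim71 (0.60) and Prtg (0.59) with Lin28b stood above all of its ranked genes. For Lin28b they were Arid3b (0.57), Ccdc38 (0.51), Gm47283 (0.50), Gm6368 (0.50) and Hmga1b (0.48), the last being near-identical to the listed gene Hmga1. For Hmga2 they were Pclaf (0.66), Gm13237 (0.64), Gm6368 (0.63), Gm47283 (0.63) and Uhrf1 (0.62), of which Pclaf and Uhrf1 act in DNA replication. For Igf2bp3 they were Ciapin1 (0.50), Nucks1 (0.49), Actl6a (0.49), Hnrnpa1 (0.48) and Shcbp1 (0.48). Within pool 2 (71 cells) the values were 0.22 for Lin28b with Arid3b (and 0.33 with Gm47283), 0.35 for Hmga2 with Pclaf and 0.39 for Igf2bp3 with Ciapin1. In pool 1 (56 cells) Lin28b with Arid3b had -0.04. Arid3b was in 4.35%, 75.6% and 2.35% of the cells of CB pools 1, 2 and 3.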

How the data were processed

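Single cells of 3 cultures were captured on Fluidigm C1 chips, copied with SMART-Seq chemistry and sequenced as paired reads. Per the study's methods and the submitters' processing notes, reads were aligned to mm10 (GRCm38) with STAR 2.7 in Partek Flow. The authors deposited 1 table per culture of estimated counts per gene and cell, not scaled: 28.9% of mESC and 30.8% of CB values above 0 were not whole, while CPCC held whole numbers only, for which no reason was given in the sources used here. Strand use was not given in the sources used here, so reads of genes that overlap on opposite strands, such as Igf2bp3 with Malsu1 or Trim71 with C130032M10Rik, cannot be told apart. Tables list genes that reached 1 count in a cell. In CPCC, 208 rows without a gene and 23 symbols turned into dates (0.139% of counts) were left out, as were 2 columns that could not be mapped.

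Counts were summed per culture or pool and given as CPM. Differences were log2 ratios on the (CPM + 1) scale, too small for low genes, over genes listed in both tables with at least 1 CPM in either, and a gene was counted at 2-fold. Deep cells weigh more in such sums. With 1 sample per group no test was possible, and no p-value is printed. Summed counts were rounded for exact Poisson intervals, shares have exact Clopper-Pearson intervals, both at 95%, and reads without molecular identifiers make these cover counting error only. The ratio step was tested on simulated data. Cells were thinned to 430000 counts for shares. Clusters were made with Seurat 5.3.0 (scale factor 10000, resolution 0.6, 10 principal components, counts regressed out) without the 10 genes and named where every gene of a cell type's marker list was in over 50% of cells, a bar set after the counts were seen. No doublet caller was run and no cell removed. edgeR 4.0.16 (TMM) and DESeq2 1.42.0 gave scaling factors as alternatives. Named genes were the 10 members, genes from among the 2 highest and 2 lowest of each pathway list in a pair, and the most similar genes. Not every such extreme is printed with its ratio. The members and lists were chosen with earlier results of these data known, and the CB pool and cluster 0 contrasts after their values were seen, including the pathway genes named for CB pool 2. The design assumed whole counts.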

Additional observations from a re-analysis of the deposited data

How the results depend on the processing

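With 1 sample per culture and 2 or 3 pools, every value depends on which cells a pool holds. Leaving out 1 pool at a time moved the number of genes at least 2-fold higher between 2 and 3 in CPCC against mESC (Lin28a and Hmga2 without CPCC pool 1), 0 and 5 in CB against mESC and 0 and 5 in CB against CPCC, and the number lower between 0 and 4, 1 and 7, and 0 and 8. The share of CB cells with at least 2 of Lin28b, Igf2bp3 and Hmga2 ran from 18.2% to 59.9%. Over the same settings the ratio to mESC ran from -1.30 to 2.14 for Lin28a, -2.21 to 3.29 for Lin28b, -0.71 to 2.49 for Hmga2 and -2.02 to 3.03 for Prtg, and the ratio to CPCC from -3.63 to 1.87 for Lin28b and -2.68 to 2.38 for Prtg, each lowest without CB pool 2, and from -5.26 (without CB pool 2) to 0.17 (without CPCC pool 1) for Sall4. With CB pool 2 alone, an alternative added after seeing the data, 1 gene was lower against mESC, 5 were higher and 0 lower against CPCC, and Igf2bp1 (0.049) and Trim71 (0.11) turned against mESC and Hmga1 (0.068) against CPCC.

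A pseudocount of 10 CPM gave 0 genes higher in CPCC against mESC, 3 higher and 2 lower in CB against mESC, and 1 higher and 1 lower in CB against CPCC. In CB against CPCC, TMM factors gave 1 higher and 4 lower, DESeq2 size factors 1 and 4, and the same weight for every cell 1 and 5. Lin28b was no longer called in any of these 3, and Lin28a and Igf2bp1 were called lower in each, with Trim71 in the last. TMM moved the median of all genes from 0.29 to 0.13 in CB against mESC and from 0.22 to 0.05 in CB against CPCC, so ratios near 1 there are relative to that shift. The cause of these changes was not tested. With 15 components, or with the genes kept in, CB again gave 4 clusters and CPCC 5 in place of 4. No paired analysis was possible because each group is 1 sample and pools carry no number tied to a clone.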
